A study of Mus musculus with 8 samples.

Results

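A T cell receptor alpha (TRA) chain is made in the thymus when a V gene is cut at its recombination signal and joined to a J gene. The signal lies directly 3′ of the V gene and holds a heptamer, a spacer of 23 bases and a nonamer. The DNA between the joined V and J genes is lost, while V genes on the far, 5′ side of the joined V stay on that chromosome. A joined chain that is in frame carries the phenylalanine (F) or tryptophan (W) of the J gene at the end of its complementarity-determining region 3 (CDR3), the loop that meets the antigen. The cells described here are those whose first TRA chain had a CDR3 that did not end in F or W. They were 6159 of the 107882 cells with a TRA chain and no multiplet mark, or 5.71%, in a series of 253531 cells. The other 101723 TRA cells, whose CDR3 ended in F or W, served as the comparison, and 100733 of them had a TRAV call that the 6159 cells also had.

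CD8+ T cells had been isolated from the thymus of 7 mice, from the spleen of 2 of them and from the tumor of the other 5. The study crossed Pdcd1fl/fl mice to an E8I Cre line, in which CD8+ T cells lose PD-1 after positive selection (Pdcd1 cKO). For this assay it used both Pdcd1 cKO mice and Pdcd1fl/fl control mice without Cre. Tumors were grown from the B16-OVA and B16-F10 melanoma lines. Genotype, tumor model and age are not given per animal in the labels, the labels give no groups among the 8 sublibraries, and the tissue and animal of a table were read from the name it was deposited under, so values are given per table with no test between groups. Cells were labelled with the Evercode TCR kit, a combinatorial barcoding method in which each of the 8 sublibraries held cells of all 14 tables. No barcode occurred in more than 1 table.

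Tables held 2523 to 20511 TRA cells, and the mean number of TRA transcripts per TRA cell ran from 1.54 to 3.72. A nucleotide annotation was at hand for all TRA cells of 11 tables and for part of them in the other 3 (thymus of mouse-160B, 92.2%; thymus of mouse-164B, 39.1%; tumor of mouse-164C, 29.2%). It covered 5186 of the 6159 cells. Invariant NKT-like chains (TRAV11 or TRAV11D with TRAJ18) were called in 13 of the 6159 cells and 3802 comparison cells, and MAIT-like chains (TRAV1 with TRAJ33) in 0 of either. Exact 95% binomial intervals are given for shares and cover counting error only.

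The CDR3 length was a multiple of 3 in 189 of the 5186 annotated cells (3.64%, 95% interval 3.15 to 4.19). A remainder of 1 base was found in 822 cells and of 2 bases in 4175. Among 80886 annotated comparison cells, 6 had a length that was not a multiple of 3. Every annotated TRA chain, 157652 in all, was marked productive by the deposited annotation. The rule used only the last residue, so these lengths are a description of what the rule selected.

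Most of these sequences were not V-J joins out of frame. The whole CDR3 of 4544 of the 5186 cells (87.6%, 86.7 to 88.5) occurred without a break in the mouse genome, at the TRA locus of chromosome 14 (GRCm39). The same was true of 3 of 80886 comparison cells. In 4543 of the 4544 the annotated 3′ end of a V gene fell in or next to the CDR3, and the bases that followed were the recombination signal of that V gene. All 32 V genes at which these chains were placed had the heptamer CACAGTG directly after their end, against 101 of all 130 annotated TRAV genes. These 4544 are called unrearranged-V chains below. They fell into 27 distinct sequences by V call, J call and nucleotides.

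The CDR3s below are those of the leading unrearranged-V chains, shown because the junction itself carries the finding. The end of the V gene is in lower case, the heptamer is in capitals, and the lower-case bases after it are the start of the spacer; for TRAV8-2 they are the whole spacer, the nonamer and 1 further base.
TRAV3-3: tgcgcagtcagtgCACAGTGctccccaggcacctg
TRAV14-1: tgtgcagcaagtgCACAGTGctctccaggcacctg
TRAV8-2: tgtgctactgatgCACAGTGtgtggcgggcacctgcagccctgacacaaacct
TRAV9D-3: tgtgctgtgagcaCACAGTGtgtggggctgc
TRAV9-1: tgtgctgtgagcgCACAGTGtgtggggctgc
The first lies at chr14:53903951-53903985, the second at chr14:53792003-53792037 and the third at chr14:53976283-53976335, all on the plus strand. In each, 13 bases came from the V gene, beginning with the codon of the conserved cysteine, and 18 to 40 bases lay past its end. Lengths of 31, 35 and 53 bases leave remainders of 1, 2 and 2.

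A pair of germline windows shows the whole signal next to the V end, with the heptamer and the nonamer in capitals and the last 30 bases of the V gene and the spacer in lower case. They were chosen because TRAV3-3 and TRAV8-2 lead the results on neighbouring genes.
TRAV3-3: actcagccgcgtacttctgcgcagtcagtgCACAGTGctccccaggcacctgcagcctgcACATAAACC
TRAV8-2: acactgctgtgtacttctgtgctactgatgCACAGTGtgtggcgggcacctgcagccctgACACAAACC
These windows span chr14:53903934-53904002 and chr14:53976266-53976334. The annotation lists TRAV3-3 as a V gene and TRAV8-2 as a V pseudogene.

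The match to the genome ran well past the CDR3. Counted from the first base of the CDR3, the unbroken match had a median of 154.5 bases (5th to 95th percentile 76.0 to 277) in the 2548 unrearranged-V chains with enough sequence on the V side to anchor it. In 71317 comparison chains it had a median of 12 bases (7 to 16), which is where a V gene gives way to the joined end. The J call of an unrearranged-V chain rested on a median of 8.0 aligned bases (n = 4038), against 58.0 in comparison chains (n = 65383). No J gene lies next to a TRAV gene in the locus, and the 8 aligned bases fell inside a match that continued into the DNA 3′ of the V gene. The J calls were few. TRAJ28, TRAJ30, TRAJ5, TRAJ6 and TRAJ47 accounted for 4542 of the 4544 cells (TRAJ28 alone for 3167).

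**Figure D1:**
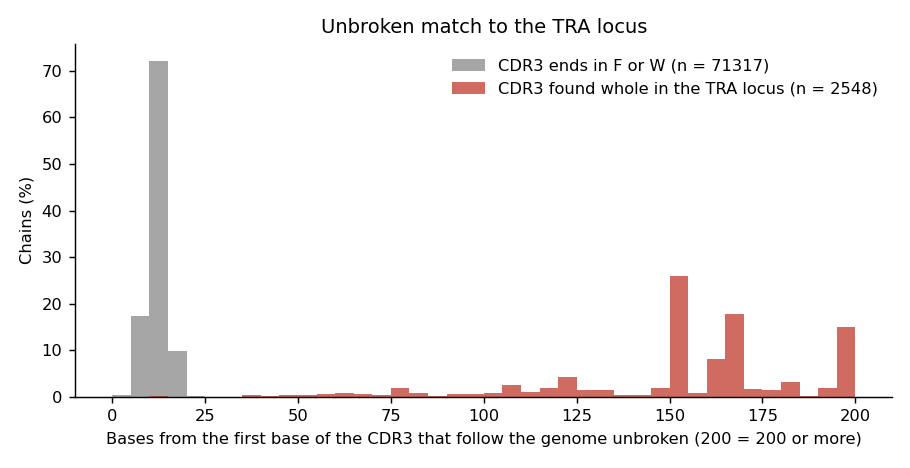
Number of bases, counted from the first base of the CDR3, that follow the TRA locus without a break (x axis, bins of 5 bases, values of 200 or more drawn at 200), as a share of chains (y axis, %). Grey bars are 71317 chains whose CDR3 ended in F or W, with a median of 12 bases, and red bars are 2548 unrearranged-V chains, with a median of 154.5 bases.

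The V-J pairs followed from this. Of 403 pairs among the 6159 cells, the 8 leading ones held 4765 cells (77.4%). TRAV3-1 with TRAJ28 led with 1252 cells (20.3%), followed by TRAV3-3_1 with TRAJ28 (1075), TRAV8-2 with TRAJ30 (695), TRAV14D-1_1 with TRAJ28 (607), TRAV14-1 with TRAJ28 (564), TRAV9D-3 with TRAJ5 (285), TRAV9-1 with TRAJ5 (2.52% of the cells) and TRAV9-2 with TRAJ5 (132). Each of the 8 was found in all 7 animals. Between 84.8% and 99.7% of all TRA cells called with one of these pairs had a CDR3 that did not end in F or W. Most calls of each pair therefore stood for such a chain, with TRAV9D-3 and TRAJ5 the lowest.

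The V call did not always name the gene that the longer match pointed to. All 1069 leading cells called TRAV3-1 matched TRAV3D-3 and TRAV3N-3 equally well and matched TRAV3-1 less well. TRAV3D-3 and TRAV3N-3 are copies of TRAV3-3 in the duplicated parts of the locus. The 917 cells called TRAV3-3_1 were placed at TRAV3-3 alone. A further 14 cells were placed at TRAV3-1 itself. In all, 2573 of the 4544 chains had a single best place and 1971 had 2 or more.

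By gene, the pseudogene TRAV8-2 stood apart from the other V genes. Of its 845 TRA cells, 698 (82.6%) had a CDR3 that did not end in F or W. The next V calls were TRAV3-3_1 (22.2% of 4892), TRAV7N-4 (19.9% of 532), TRAV14-1 (19.9% of 2900) and TRAV14D-1_1 (15.3% of 4152), and the median over the 58 V genes with at least 200 TRA cells was 1.09%. Among J genes, TRAJ28 had the highest share, 82.9% of 4478 TRA cells. It was followed by TRAJ5 (44.7% of 1375), TRAJ2 (35.8% of 868), TRAJ30 (14.8% of 5986) and TRAJ6 (11.1% of 1599), against a median of 0.583% over 41 J genes.

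The same few sequences came back in every animal. Of 618 distinct chains among the annotated cells, 16 occurred in all 7 animals and these covered 4466 of 5186 cells (86.1%, 85.2 to 87.0). A sequence in at least 2 animals was held by 88.7% of the cells (87.8 to 89.5), against 42.9% of comparison cells weighted to the same table and V gene. The 8 chains found in most animals were those called TRAV3-1 (1069 cells), TRAV3-3_1 (917), TRAV8-2 (553), TRAV14D-1_1 (525), TRAV14-1 (458), TRAV9D-3 (235), TRAV9-1 (130) and TRAV14-2_1 (112), and each was present in 14 of 14 tables. The TRAV3-1 and TRAV3-3_1 chains share their CDR3, as do the TRAV14D-1_1, TRAV14-1 and TRAV14-2_1 chains, so these 8 are 5 CDR3s. At the other end, 567 of the 618 chains were found in 1 table.

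The leading recurrent TRA sequences met many different beta chains. The 513 cells with the TRAV3-1 chain and a TRB chain held 413 different TRB CDR3s, and the 336 such cells with the TRAV14D-1_1 chain held 333. The 42 such cells with a recurrent chain of TRAV7-4 and TRAJ6 held 15. TRBV13-2 led with 8.90% of the 3158 cells with a TRB chain (12.2% of comparison cells of the same tables), followed by TRBV12-1 (7.88%, against 8.42%) and TRBV13-1_1 (7.85%, against 8.83%). TRBJ2-7 (19.2%, against 19.6%), TRBJ2-1 (12.98%, against 11.6%) and TRBJ1-1 (11.1%, against 11.97%) were the leading TRBJ genes.

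Outside the unrearranged-V chains, 240 annotated cells (4.63%, 4.07 to 5.24) had a CDR3 that ran straight into the first exon of the alpha constant gene, TRAC. TRAJ2 was the J gene of 224 of them, and 231 of 665 annotated TRAJ2 chains (34.7%) fell under the rule. Over the 13 tables with at least 20 such chains the share ran from 21.7% to 42.9%, with a median of 34.9%. The next lines give the TRAJ2 gene, with the GT at the junction in capitals. Below it are the gene's bases before the break joined to TRAC, with the first 19 bases of TRAC in capitals.
TRAJ2: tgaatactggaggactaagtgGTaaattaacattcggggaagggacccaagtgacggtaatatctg
TRAJ2 to TRAC: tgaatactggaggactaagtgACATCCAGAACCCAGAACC
TRAJ2 lies at chr14:54455293-54455358. In all 224 chains the gene broke off after base 21 of its 66, and the 45 bases beyond were missing. How many of the 21 bases before the break each chain kept at its V end is not given here. In the gene the base pair after the break is GT, the letters with which an intron begins, though GT occurs at other places in the gene too. GT also follows the full gene, where the usual splice to TRAC takes place. Whether these chains were spliced at the break was not tested. The codon for phenylalanine lies in the missing part. These 240 chains all had a TRAC call, which follows from the run into TRAC by which they were picked out. A second TRA chain was found in 32.5% of their cells, against 11.3% for unrearranged-V chains. Unlike the unrearranged-V chains they were diverse, with 211 distinct sequences and 42 V calls among the TRAJ2 chains.

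The remaining annotated cells formed a pair of small sets. In 234 (4.51%, 3.96 to 5.11) a fixed string of 11 bases that the TRA locus window does not hold began within 30 bases of the CDR3 end, with 220 distinct sequences, 38 J calls and no TRAC call. The string stood that near to the CDR3 in 249 of 80886 comparison chains. The last 168 cells (3.24%, 2.77 to 3.76) held 161 distinct sequences with none of these features, and 66 of them had a length that was a multiple of 3.

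Few transcripts were counted for each chain. A single TRA transcript was counted in 5715 of the 6159 cells (92.8%, 92.1 to 93.4), against 52.9% of comparison cells weighted to the same table and V gene. The share was higher than in the comparison in 14 of 14 tables, by 24.5 to 53.0 percentage points. No TRAC call was made in 93.3% of the cells (92.6 to 93.9), against 16% of weighted comparison cells, again higher in 14 of 14 tables. Among unrearranged-V chains 4 of 4544 had one.

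Grouping TRA cells by the transcript number of their first chain restates the same fact, and chains of this kind held as second chains are not counted in it. Among cells with 1 TRA transcript, the share under the rule ran from 11.3% to 16.7% in the 7 thymus tables. In the 7 spleen and tumor tables it ran from 5.61% to 9.75%. At 2 transcripts the highest table had 3.62%, and at 4 or more the highest had 0.513%.

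**Figure D2:**
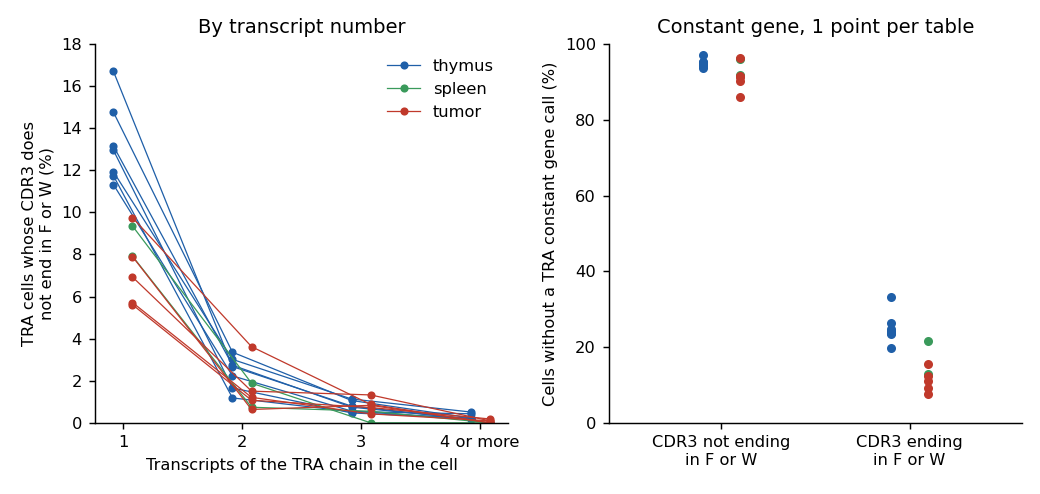
Left, share of TRA cells whose CDR3 did not end in F or W (y axis, %) by the number of transcripts of the TRA chain in the cell (x axis), 1 line per table. Right, share of cells without a TRAC call (y axis, %), 1 point per table, for cells inside and outside the rule. Shares fall from at most 16.7% at 1 transcript to at most 0.513% at 4 or more, and the constant gene is missing in 86.0% to 97.2% of the cells in every table.

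A TRB chain was found less often in these cells than in the comparison in 14 of 14 tables, by 1.49 to 26.1 percentage points (51.3% of all, 50.02 to 52.5, against 59.3% weighted). A second TRA chain was found in 780 of the 6159 cells (12.7%, 11.8 to 13.5), against 16.2% of weighted comparison cells, and its share was lower in 12 of 14 tables. This second chain ended in F or W in 717 of the 780 (91.9%, 89.8 to 93.7).

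The same sequences were common as second chains of comparison cells. Of 15833 comparison cells with a second TRA chain, 3335 (21.1%) had one that did not end in F or W, and 2292 of the 2793 annotated ones (82.1%) were unrearranged-V chains. That share of second chains was 28.2% to 38.8% in the thymus tables (median 33.4%) and 9.54% to 26.0% in the spleen and tumor tables (median 18.1%), higher in the thymus in 7 of 7 animals. Counted as first or second chain, an unrearranged-V chain, identified by its V call, J call and CDR3 residues so that cells without nucleotide annotation could be included, was held by 9.04% to 13.4% of TRA cells of thymus tables and by 3.63% to 7.70% of TRA cells of spleen and tumor tables. In annotated cells 4544 of 4549 first chains with such a call were unrearranged-V chains by nucleotides.

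By tissue, the share of TRA cells under the rule was 6.51%, 7.86% and 9.51% at the lowest, median and highest of the 7 thymus tables. The 2 spleen tables had 5.24% (mouse-155A) and 6.90% (mouse-155C). The 5 tumor tables had 3.71% and 4.48% (mouse-160A, mouse-160B), 5.99% (mouse-160C), and 3.23% and 3.28% (mouse-164B, mouse-164C). The thymus was higher than the second tissue in 7 of 7 animals, by 1.32 to 2.58 times (median 1.59), and the intervals of the 2 tissues did not overlap in any of the 7.

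**Figure D3:**
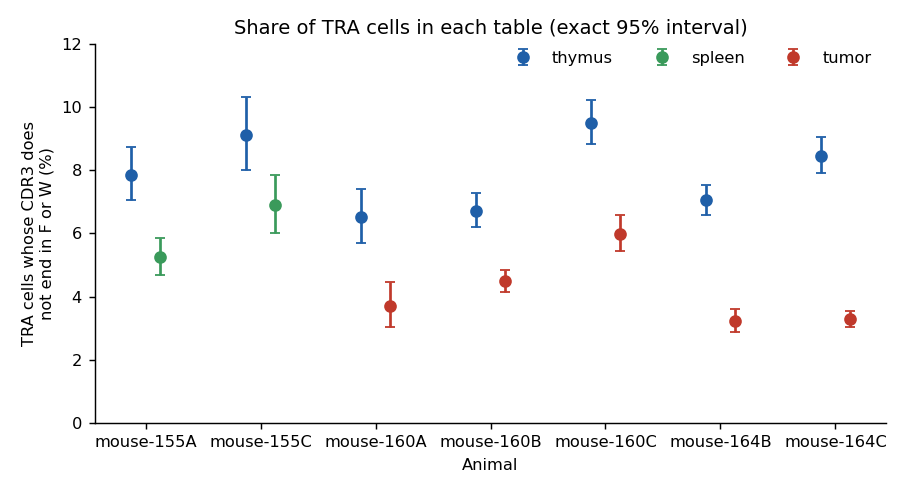
Share of TRA cells whose CDR3 did not end in F or W (y axis, %) in the thymus (blue) and the spleen (green) or tumor (red) of each of 7 animals (x axis). Points are tables and bars are exact 95% binomial intervals, which cover counting error only. The thymus point lies above the other point in every animal.

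The tissues were also compared at equal transcript number. Among cells with 1 TRA transcript the thymus was higher in 7 of 7 animals (1.28 to 2.63 times), among cells with 2 in 6 of 7, among cells with 3 in 3 of 7 (0.354 to 1.75 times) and among cells with 4 or more in 7 of 7. The last count rests on very few cells. At 4 or more transcripts the share was 0.169% to 0.513% of 195 to 2206 TRA cells in the thymus tables. In the spleen and tumor tables it was 0% to 0.182%, with a median of 0%. The thymus was also higher in cells with a TRB chain (7 of 7) and without one (7 of 7). Within sublibraries, 55 of 56 comparisons of an animal's tissues had the thymus higher. These 56 divide the cells of the same 7 animals and add no independent comparison. Unrearranged-V chains stood at 5.81% to 8.90% of TRA cells in the thymus tables and 2.55% to 6.07% in the spleen and tumor tables, 1.31 to 2.99 times apart within an animal. For the other chains under the rule the ratio was 1.00 to 1.39. Counting each distinct chain once per table, the thymus was higher in 4 of 7 animals. The unrearranged-V chains enter that count as 254 entries in place of 4544 annotated cells. It therefore does not measure how many cells held them.

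Among V calls with at least 100 unrearranged-V cells, TRAV3-3_1, TRAV8-2, TRAV14-1 and TRAV14-2_1 were higher in the thymus in 7 of 7 animals. TRAV8-2 chains made up 0.721% to 0.985% of TRA cells in the thymus tables and 0.249% to 0.770% in the other tables. For TRAV14-1 the values were 0.617% to 1.23% and 0.178% to 0.697%. TRAV3-1, TRAV14D-1_1 and TRAV9-2 were higher in 6 animals and TRAV9D-3 and TRAV9-1 in 5, with ranges that overlapped between the tissues.

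In 2765 cells an unrearranged-V chain was found together with a joined chain that ended in F or W, 473 times as the first and 2292 times as the second chain. For 1526 of these pairs the unrearranged V had a single place in the locus, which holds 130 TRAV genes, all on the plus strand and 5′ of the J genes. The joined V was the very next gene toward the J genes in 411 of the 1526 (26.9%, 24.7 to 29.2). V use of all comparison cells, weighted to the same tables and genes, would give 1.65%. The joined V was the previous gene in 2 pairs (0.131%), where V use would give 0.170%. It lay anywhere on the J side in 913 pairs (59.8%, 57.3 to 62.3), where V use would give 24.3%.

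**Figure D4:**
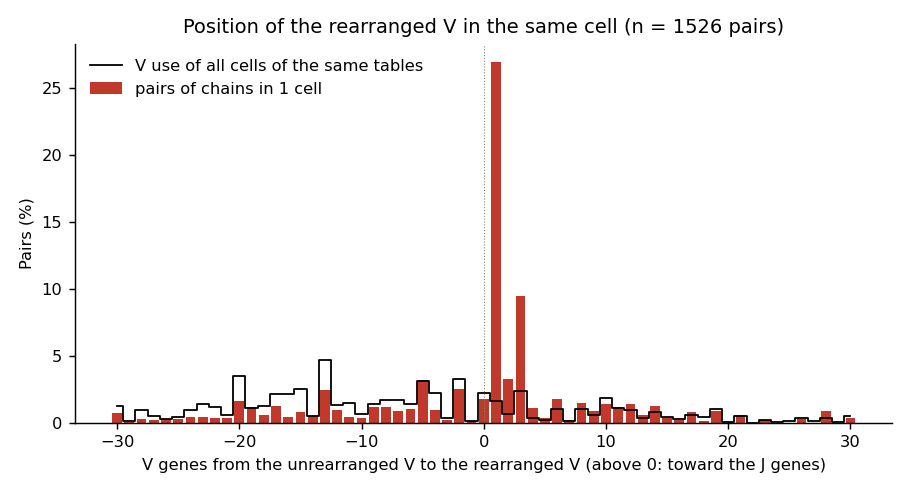
Distance, in V genes, from the unrearranged V to the V of the joined chain in the same cell (x axis, positive toward the J genes), as a share of 1526 pairs (red bars, y axis, %). The black line gives the share expected from the V use of all comparison cells of the same tables; the bar at 1 stands at 26.9% and the line there at 1.65%.

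Pairs were also counted without repeats. With each pair of chains counted once per table, the joined V was the next gene in 308 of 1373 pairs (22.4%, 20.2 to 24.7), with 1.35% from V use. The share was above that from V use in 14 of 14 tables, from 14.04% to 33.3% with a median of 21.8%. The lowest number of such pairs was 13, in mouse-160A tumor, where V use would give 6.53% and 4 of the pairs held the next gene. In cells under the rule, where the unrearranged chain came first, the next gene was joined in 116 of 292 pairs (39.7%, 34.1 to 45.6), and in comparison cells in 192 of 1081 (17.8%, 15.5 to 20.2). In the thymus it was 190 of 924 pairs (20.6%, 18 to 23.3). Counting every cell, repeats included, gave 14.04% to 82.1% over the tables, with the highest in mouse-160A tumor.

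The partners were specific to the gene. Shares by gene count every cell, repeats included, unless said otherwise. With an unrearranged TRAV3-3, the joined V was TRAV9-4, the next gene at 10.1 kb, in 249 of 597 pairs (41.7%, with 2.63% from V use), with 145 TRB CDR3s and 35 J genes in all 7 animals. With each pair of chains counted once per table it was 154 of 474 (32.5%). With TRAV8-2 it was TRAV16, the next gene at 4.87 kb, in 109 of 228 pairs (47.8%, with 1.51%), with 92 TRB CDR3s in all 7 animals. Counted once, these were 101 of 215 (47.0%). The copies of TRAV8-2 paired with the copies of TRAV16 beside them, TRAV8N-2 with TRAV16N in 7 of 37 pairs (18.9%, with 2.55%) and TRAV8D-2 with TRAV16D-DV11 in 7 of 32 (21.9%, with 0.563%). The leading partner of TRAV9-2 was TRAV12-2, 3 genes on (24 of 87), and that of TRAV14-2 was TRAV3-3, 2 genes on (10 of 50).

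TRAV14-1 was the exception among the 7 genes with at least 30 pairs. Its leading partner, TRAV12-1, lay 2 genes on the far side and was no more common (8.40% of 369 pairs) than V use would give (10.1%). Even so, 45.0% of its partners lay on the J side, where V use would give 27.3%, and TRAV9-2, 3 genes on, was found in 24 pairs (6.504%, with 2.55%). For TRAV8N-2 and TRAV8D-2 the share on the J side, 75.7% and 65.6%, was near that from V use, 69.0% and 72.8%. In the 1239 pairs with more than 1 best place, the joined V was next to one of the copies in 175 (14.1%, with 1.37%).

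Cells with the same TRB chain in 1 table are taken here as a clone, and in some clones most unrearranged-V chains came from 1 gene. Of 37 clones of at least 50 TRA cells in fully annotated tables, all of them in tumors, 10 had no cell with an unrearranged-V chain and 10 had one in more than 5% of their cells. Over all TRA cells of these tumor tables the share was 4.22% to 7.39%. In 6 of the 8 clones with at least 10 cells with an unrearranged-V chain, 1 gene or pair of copies held at least 80% of those cells. The leading joined V was the gene next to that one in 4 of the 6 and was not in the other 2. The clones named next were chosen after their values were seen. In mouse-160A tumor a clone of 163 TRA cells (TRBV13-1_1, TRBJ1-3_1) had joined TRAV9-4 with TRAJ33 as its leading chain, and 61 of its cells (37.4%) had an unrearranged-V chain, of which 59 were TRAV3-3, the gene just 5′ of TRAV9-4. In mouse-160C tumor a clone of 102 TRA cells (TRBV13-1_1, TRBJ2-7) had TRAV9D-4_1 as its joined V, and 33 of its 34 unrearranged-V chains were TRAV3D-3 or TRAV3N-3, whose next genes are TRAV9D-4 and TRAV9N-4. Another of that table, of 334 TRA cells (TRBV2, TRBJ2-3), had joined TRAV6-5_1, and 14 of its 17 unrearranged-V chains were TRAV9-1 or its copy TRAV9D-1, whose next genes are TRAV6-5 and TRAV6D-5. In mouse-160B tumor a clone of 167 TRA cells (TRBV29, TRBJ2-2) was 1 of the 2 exceptions. Its leading joined V was TRAV5-4 in 141 cells, with TRAV16N_1 in 80, and TRAV3-3 was 15 of its 18 unrearranged-V chains. TRAV5-4 lies on the J side of TRAV3-3 but is not the next gene, and TRAV16N lies on the far side of TRAV3-3. The other exception was a clone of 263 TRA cells in mouse-160A tumor (TRBV13-2, TRBJ2-1). It had joined TRAV16N_1 in 253 cells and TRAV3D-3 or TRAV3N-3 as 11 of its 12 unrearranged-V chains. TRAV16N lies on the J side of both TRAV3D-3 and TRAV3N-3 without being next to either.

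**Figure D5:**
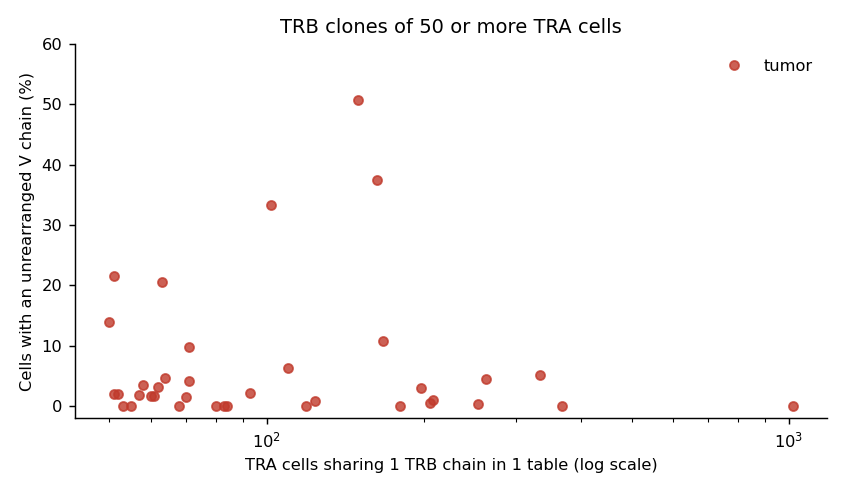
Tumor clones of at least 50 TRA cells that share a TRB chain in 1 table (n = 37, tables with full annotation), by number of TRA cells (x axis, log scale) and share of those cells with an unrearranged-V chain as first or second chain (y axis, %). Of the 37, 10 stand at 0% and 10 above 5%, with the highest at 50.7%.

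The clone with most cells under the rule was also in mouse-160C tumor (TRBV1, TRBJ2-2). A TRA chain was found in 150 of its 825 cells, 18.2% against 27.9% of all TRB cells of the table. Under the rule fell 72 of the 150 (48.0%), and the joined chains of the rest used 25 V calls with none leading (TRAV8D-2_1 in 18 cells). Its unrearranged-V chains were TRAV3D-3 or TRAV3N-3 in 44 cells and TRAV7D-4 in 25. Without this clone 5.05% (4.54 to 5.60) of TRA cells of the table fell under the rule in place of 5.99%, which stayed below the 9.51% of the same animal's thymus.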

How the data were processed

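The authors assembled and annotated TRA and TRB chains with the Parse Biosciences TCR pipeline, of unstated version (not given in the sources used here). Submitters' processing notes name the genome build GRCm39. The deposited tables give, per cell barcode, the count of reads and of transcripts of each chain, and per annotated chain its V and J identity in percent, as the authors' pipeline wrote them. Clonotype tables were not used for values. The last line of 3 annotation tables was broken off and was dropped.

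Cells were kept where the deposited multiplet mark was 0, and nothing else was filtered. CDR3 nucleotides longer than 8 bases were searched for as exact strings in positions 52600001 to 54500000 of chromosome 14, with gene ends from GENCODE, and chains were placed by the longest exact match. The sorting into kinds was run on simulated chains as a check of the code only. Simulated unrearranged and TRAC-joined chains were made from the strings that the sorting looks for, so their outcome was fixed. The kind with the fixed string and the placement in the locus were not simulated. Comparison shares were weighted to the table and V call of the cells under the rule. V use in the pairs was weighted to table and unrearranged gene. Named items were the 8 leading V-J pairs, 5 V and 5 J genes with the highest share among those with at least 200 TRA cells, 8 sequences found in most animals and 3 TRBV and 3 TRBJ genes; clones, TRAJ2 junctions, the kinds of chain and gene neighbours were chosen after their values were seen. The cells and lists were chosen with earlier results of these data known. Since the labels give no groups and cells of 1 animal are not replicates, no p-value is given. Python 3.11.15, pandas 2.3.3, numpy 2.4.6 and scipy 1.17.1 were used, with alternatives listed under the closing section.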

Additional observations from a re-analysis of the deposited data

Results flagged for a closer look

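In cells that carry a multiplet mark, which were left out throughout, 483 of 22066 first TRA chains (2.19%) did not end in F or W, against 5.71% in cells without the mark. In TRB chains of cells without the mark, 566 of 188544 (0.300%, 0.276 to 0.326) did not end in F or W. Both were picked out because they lie outside the TRA cells described. No thymus or tumor table stood apart from the others in the 22 sets of values looked at.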

How the results depend on the processing

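Of 128 values recomputed under alternatives, 110 were counted as unmoved. For shares this meant a move of less than the spread between tables. For the number of animals with the thymus higher it meant staying within a set factor of the main value. Leaving out 1 of the 8 sublibraries in turn moved none of the 8 results, with a median share of 6.496% to 6.69% in place of 6.62%. None moved with 2 rarely called J genes left out, which held 7 of the cells and 2 in-frame chains. These settings kept most of the same cells and could hardly move a value, yet they make up much of the 110. All 18 values that moved came from the other settings. Cells with at least 2 TRA transcripts gave a median share of 0.962%, with a length that is a multiple of 3 in 1.12%, a second TRA chain in 43.2%, a TRB chain in 83.8%, a sequence in at least 2 animals in 73.9%, and the thymus higher in 6 of 7 animals; cells with 1 transcript gave a median of 10.5%. Each distinct chain once per table gave a median of 1.61%, a multiple of 3 in 19.9%, a sequence in at least 2 animals in 34.8%, the leading pair in 3.53% in place of 20.3%, and the thymus higher in 4 animals. Defining the cells by nucleotide length or a stop codon left 0.0998% with a multiple of 3, by construction. Keeping multiplet-marked cells gave a second TRA chain in 16.6%, and cells with a TRB chain gave it in 21.0% and 1 transcript in 88.2%; cells with 1 TRA chain had 1 transcript in 95.3%. Without the 3 tables annotated below 95%, 4 animals kept both tissues and the thymus was higher in 4. Chains not found whole in the locus gave a median of 0.711%. The last setting and that of cells with 1 transcript were chosen after seeing the data. The causes of these moves were not tested beyond what the settings leave out. Place in the locus is limited by near-identical V copies, since 1971 of 4544 chains had more than 1 best place, and the V call of a joined chain has the same limit.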
